A study of Homo sapiens with 4 samples.

Results

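The genes of human proteins with a CTD-interacting domain (CID) were examined in poly(A) RNA of HEK293T, a line derived from human embryonic kidney, transformed with adenovirus DNA and carrying the SV40 large T antigen. The 8 genes, RPRD1A, RPRD1B, RPRD2, PCF11, SCAF4, SCAF8, CHERP and U2SURP, were found by symbol among 69222 gene identifiers, and all 8 were among the 20319 genes with enough counts to be tested. In 1 group of 2 libraries (shRPRD1B) the cells had been transduced with lentivirus for a short hairpin RNA against RPRD1B. In the other group of 2 libraries (shCtrl) the lentivirus encoded a control hairpin, so both groups were of 1 cell line, carried a vector and differed by the hairpin. The sources used here give neither the hairpin sequences nor the dose of virus or the time after transduction. Nor do the labels name separate cultures behind the replicates, and the p-values therefore reflect a spread between libraries that may be technical.

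RNA polymerase II carries on its largest subunit a C-terminal domain (CTD), a long tail of repeated heptapeptides whose serines are phosphorylated and dephosphorylated as a gene is transcribed. A CID is a bundle of helices that grips a short stretch of this phosphorylated tail and so brings its protein to polymerase at particular stages of transcription. RPRD1A and RPRD1B are small paralogues made of a CID and a coiled coil, bind polymerase as dimers and have been linked to CTD dephosphorylation and to Wnt signalling and cyclin D1. RPRD2 is a larger relative. PCF11 is a subunit of cleavage factor II and acts in 3′ end cleavage and termination. SCAF4 and SCAF8 keep polymerase from using early polyadenylation sites, and CHERP and U2SURP associate with the U2 snRNP of the spliceosome.

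RPRD1A and RPRD1B are the closest pair, and the start of their coding sequences shows how far reads from them can be told apart. The first 60 coding bases (GENCODE 29 transcripts, GRCh38) are printed with the 6 bases that differ in capitals.
RPRD1A: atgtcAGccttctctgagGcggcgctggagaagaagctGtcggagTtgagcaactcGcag
RPRD1B: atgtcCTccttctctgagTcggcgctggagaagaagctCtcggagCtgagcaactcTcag
Over the whole coding sequence the paralogues were identical at 657 of 932 aligned bases (70.5%), and the longest run of bases shared by their transcripts was 19 bases long, cggcgctggagaagaagct. No pair among the 8 genes shared a run of more than 21 bases (RPRD1A with RPRD2).

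All 4 libraries held the genes at depth, with library totals between 47732913 and 65572391 counts and between 1785 and 18845 counts per library for each of the 8 genes. The knockdown libraries were less alike than the control libraries. Among 8966 genes of at least 16 CPM (a count divided by the TMM-scaled library size), the log2 ratio between the 2 libraries of a group had an SD of 0.393 in shRPRD1B and 0.171 in shCtrl. All 7 markers listed for HEK293T stood at 1 CPM or more in every library, whereas 4 of 4 endothelial and 4 of 5 leukocyte markers stood below 1 CPM in every library. Of 6 fibroblast markers, 2 stood at 1 CPM or more in every library. COL1A2, at 0, and DCN stood below 1 CPM in every library. The fibroblast list summed to 22.2 and 24.5 CPM in shRPRD1B, against 33.6 and 38.0 CPM in shCtrl. Mitochondrially encoded mRNAs took 2.26% and 3.32% of the counts in shRPRD1B 1 and 2, against 2.42% and 2.47% in shCtrl. The part of these markers, shares and depths in the results was not tested.

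RPRD1B, the target of the hairpin, was the only one of the 8 genes whose mean was lower in the knockdown. It had 27.2 and 35.5 CPM in shRPRD1B 1 and 2, against 50.4 and 50.1 CPM in shCtrl 1 and 2. The groups did not overlap, with the knockdown below the control, as was so for 20.6% of all tested genes, and the control values were almost equal. The knockdown mean was 31.4 ± 5.81 CPM and the control mean 50.2 ± 0.221 CPM (SD, n = 2 each), a ratio of 0.624. The log2 fold change was -0.68 ± 0.16 (SE), and its 95% interval ran between -1.07 and -0.29. The edgeR quasi-likelihood p was 0.00585, or 0.469 after Benjamini-Hochberg adjustment over all tested genes, so the gene missed the threshold of 0.05. In the same fit 0.0197% of all tested genes were called higher and 0.0148% lower. DESeq2 called RPRD1B lower (adjusted p = 0.0467), together with 0.561% of all genes, and called none of the other 7 members (0.62% of all genes were called higher). Without a low-count filter edgeR called it lower too (adjusted p = 0.00161), as it did 0.816% of genes.

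The position of RPRD1B among all genes shows how large this difference was. Of the 20319 tested genes, 252 had an edgeR p at or below that of RPRD1B, RPRD1B included. A log2 fold change as low or lower was seen in 1266 (6.23%) of the tested genes and in 68 (0.758%) of the 8966 genes of at least 16 CPM. The value depended on the knockdown library, at -0.88 in shRPRD1B 1 and -0.50 in shRPRD1B 2 relative to the control mean. In bulk RNA, fewer cells with a lowered level and less RNA in every cell cannot be told apart. With 2 libraries a group, the smallest two-sided p of an exact permutation test is 0.333. RPRD1B (ENSG00000101413.12) lies on chromosome 20 at 38033546 to 38127780, plus strand, in the GENCODE 29 annotation of GRCh38. Its exons share 394 bases with those of TGM2 on the opposite strand, which had 549 and 336 counts in shRPRD1B and 465 and 415 counts in shCtrl. The strand setting of the counting is not known from the labels, so reads from that overlap cannot be told apart.

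**Figure D1:**
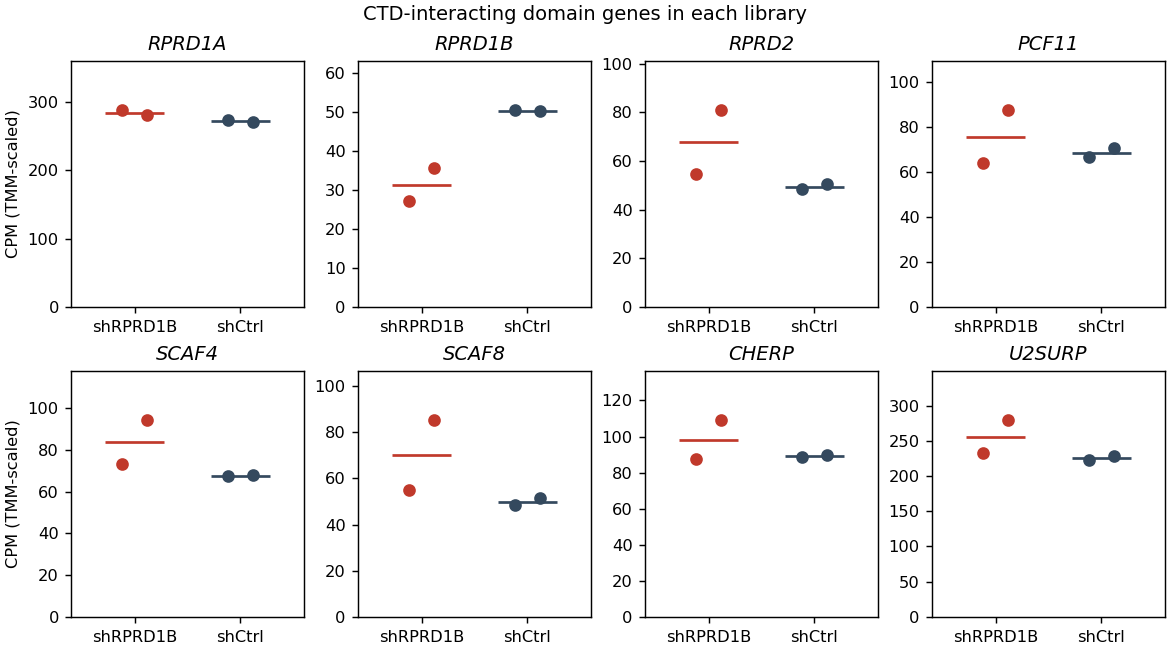
CPM of the 8 CID genes in each library (points) with the group mean (line), shRPRD1B on the left and shCtrl on the right of each panel, each panel with its own axis from 0. RPRD1B had 27.2 and 35.5 CPM in shRPRD1B and about 50 CPM in shCtrl, and for 6 of the other 7 genes shRPRD1B 2 (the right point of its pair) was the highest library.

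RPRD1A, the paralogue of the target, hardly differed between the groups and was the most abundant member. It had 288 and 281 CPM in shRPRD1B, against 273 and 271 CPM in shCtrl. Both knockdown libraries lay above both control libraries by a small margin, as was so for 20.3% of tested genes. The log2 fold change was 0.06 ± 0.10 (95% interval -0.19 to 0.32, edgeR adjusted p = 0.884). The gene (ENSG00000141425.18) lies on chromosome 18 at 35984387 to 36067576, minus strand, and no other gene of the annotation overlaps it.

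Per length of transcript, RPRD1A exceeded RPRD1B in every library. Levels were set per kb of the transcript with the longest coding sequence, 4438 bases for RPRD1A and 3874 bases for RPRD1B. RPRD1A stood at 64.8 and 63.3 CPM per kb in shRPRD1B and at 61.6 and 61.1 CPM per kb in shCtrl. RPRD1B stood at 7.03 and 9.15 CPM per kb in shRPRD1B and at 13.0 and 12.9 CPM per kb in shCtrl. RPRD1B transcripts thus made up 9.79% and 12.6% of the sum of the pair in the knockdown libraries and 17.4% and 17.5% in the control libraries. The sum itself was 71.8 and 72.5 CPM per kb in shRPRD1B, against 74.6 and 74.0 CPM per kb in shCtrl. The log2 ratio of RPRD1B to RPRD1A within a library, which does not depend on the scaling of libraries, was -3.20 and -2.79 in shRPRD1B and -2.24 in both shCtrl libraries. These shares are given as a description, with no test, and rest on 1 transcript length per gene. All annotated exons together span 8442 bases for RPRD1A and 5511 bases for RPRD1B, and shares by those lengths would differ.

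**Figure D2:**
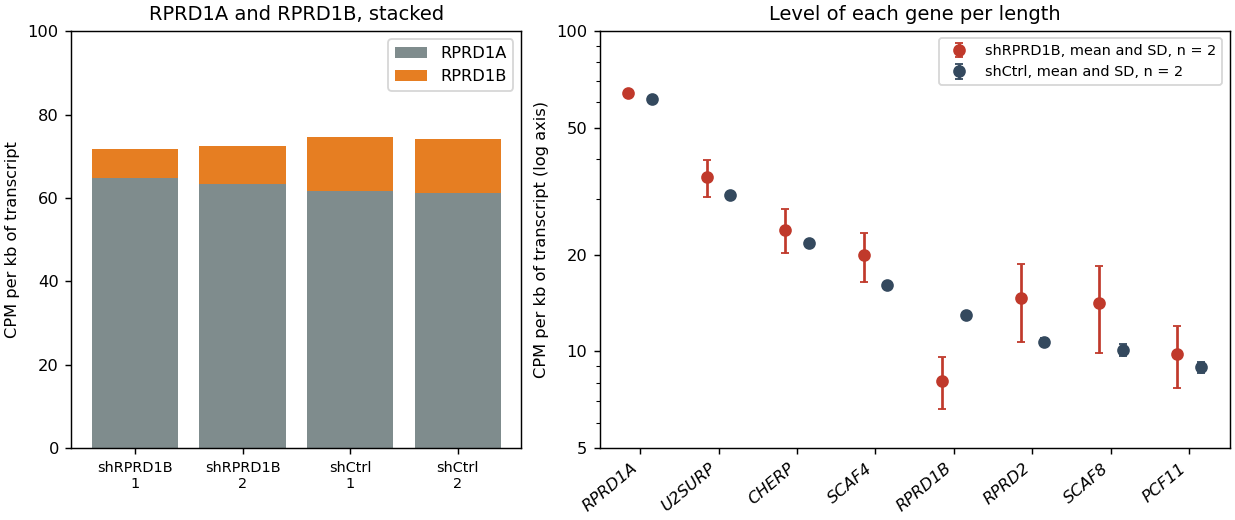
Left, CPM per kb of transcript of RPRD1A and RPRD1B stacked for each library. Right, CPM per kb of the 8 genes on a log axis, as the mean and SD of 2 libraries per group, in the order of the shCtrl means; RPRD1B lay between SCAF4 and RPRD2 in shCtrl at 13.0 and was last in shRPRD1B at 8.09 CPM per kb.

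The order of the 8 genes by level per length was led by the same genes in both groups. In shCtrl it ran RPRD1A (61.4 ± 0.374 CPM per kb), U2SURP (30.9 ± 0.546), CHERP (21.8 ± 0.168), SCAF4 (16.1 ± 0.0511), RPRD1B (13.0 ± 0.0571), RPRD2 (10.7 ± 0.288), SCAF8 (10.1 ± 0.445) and PCF11 (8.93 ± 0.363; SD, n = 2 each). RPRD2 and SCAF8 lay closer together than the sum of their SDs, whereas the other neighbours were further apart than that. In shRPRD1B the first 4 kept their order, and RPRD1B came last at 8.09 ± 1.5 CPM per kb. There PCF11 had 9.85 ± 2.18, SCAF8 14.2 ± 4.29 and RPRD2 14.7 ± 4.01 CPM per kb, and from CHERP (24.0 ± 3.77) downwards every neighbouring pair lay closer together than the sum of its SDs. The place of RPRD2 rests on the transcript chosen: per kb of its longest annotated transcript (7605 bases instead of 4612) it had 8.90 CPM per kb in shRPRD1B and 6.49 CPM per kb in shCtrl, and it was the lowest member in shCtrl.

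RPRD2, the largest of the RPRD proteins, was higher mainly in 1 knockdown library. It had 54.6 and 80.8 CPM in shRPRD1B 1 and 2, against 48.4 and 50.3 CPM in shCtrl. Both knockdown libraries lay above both control libraries, as in 20.3% of tested genes. The first knockdown library was within 0.15 of the control mean on the log2 scale, and the other was 0.71 above it. The log2 fold change was 0.46 ± 0.20 (95% interval -0.04 to 0.95, edgeR adjusted p = 0.692). It was 0.71 without shRPRD1B 1 and 0.15 without shRPRD1B 2. RPRD2 lies on chromosome 1 at 150363091 to 150476566, plus strand, with no annotated gene overlapping it.

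PCF11 overlapped between the groups. It had 63.8 and 87.5 CPM in shRPRD1B, against 66.6 and 70.6 CPM in shCtrl, so that the knockdown libraries lay on either side of both control libraries. The log2 fold change was 0.14 ± 0.17 (95% interval -0.29 to 0.57, edgeR adjusted p = 0.84), and it was 0.35 without shRPRD1B 1 and -0.10 without shRPRD1B 2. PCF11 lies on chromosome 11 at 83156988 to 83187451, plus strand. Its exons share 1516 bases with PCF11-AS1 on the other strand, which had 0 counts in all 4 libraries. They also share 175 bases with AP000873.2 on the other strand, which had 341 and 293 counts in shRPRD1B and 362 and 321 counts in shCtrl, and 188 bases with AP000873.4 on the same strand, which had 18 to 35 counts.

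SCAF4 and SCAF8, the anti-termination paralogues, both had non-overlapping groups with the knockdown above the control, as was so for 20.3% of tested genes. SCAF8 had 55.1 and 85.1 CPM in shRPRD1B, against 48.3 and 51.4 CPM in shCtrl. It had the largest positive value of the 8 genes, a log2 fold change of 0.49 ± 0.22 (95% interval -0.05 to 1.03, edgeR adjusted p = 0.692). SCAF8 was 0.15 above the control mean in shRPRD1B 1 and 0.77 above it in shRPRD1B 2. Without a low-count filter edgeR called it higher (adjusted p = 0.0423), as it did 0.884% of all genes. SCAF4 had 73.3 and 94.1 CPM in shRPRD1B, against 67.4 and 67.7 CPM in shCtrl. Its log2 fold change was 0.31 ± 0.15 (95% interval -0.06 to 0.68, edgeR adjusted p = 0.703), with 0.48 without shRPRD1B 1 and 0.12 without shRPRD1B 2. SCAF4 is on chromosome 21 at 31671033 to 31732075, minus strand, and SCAF8 on chromosome 6 at 154733325 to 154834244, plus strand. The SCAF8 exons share 713 bases with TIAM2 on the same strand, whose counts were 823 and 712 in shRPRD1B and 545 and 514 in shCtrl.

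The members of the U2 snRNP branch gave small values. U2SURP had 232 and 279 CPM in shRPRD1B, against 222 and 228 CPM in shCtrl. It had no overlap between the groups, with the knockdown above the control, as had 20.3% of tested genes. Its log2 fold change was 0.18 ± 0.13 (95% interval -0.14 to 0.51, edgeR adjusted p = 0.747), 0.31 without shRPRD1B 1 and 0.04 without shRPRD1B 2. CHERP had 87.3 and 109 CPM in shRPRD1B, against 88.6 and 89.5 CPM in shCtrl, and its groups overlapped. Its log2 fold change was 0.14 ± 0.14 (95% interval -0.21 to 0.49, edgeR adjusted p = 0.808), 0.30 without shRPRD1B 1 and -0.03 without shRPRD1B 2. U2SURP is on chromosome 3 at 142964497 to 143060546, plus strand, and CHERP on chromosome 19 at 16517889 to 16542530, minus strand. CHERP shares 1021 exon bases with C19orf44 on the opposite strand, which had 917 and 886 counts in shRPRD1B and 644 and 709 counts in shCtrl.

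**Figure D3:**
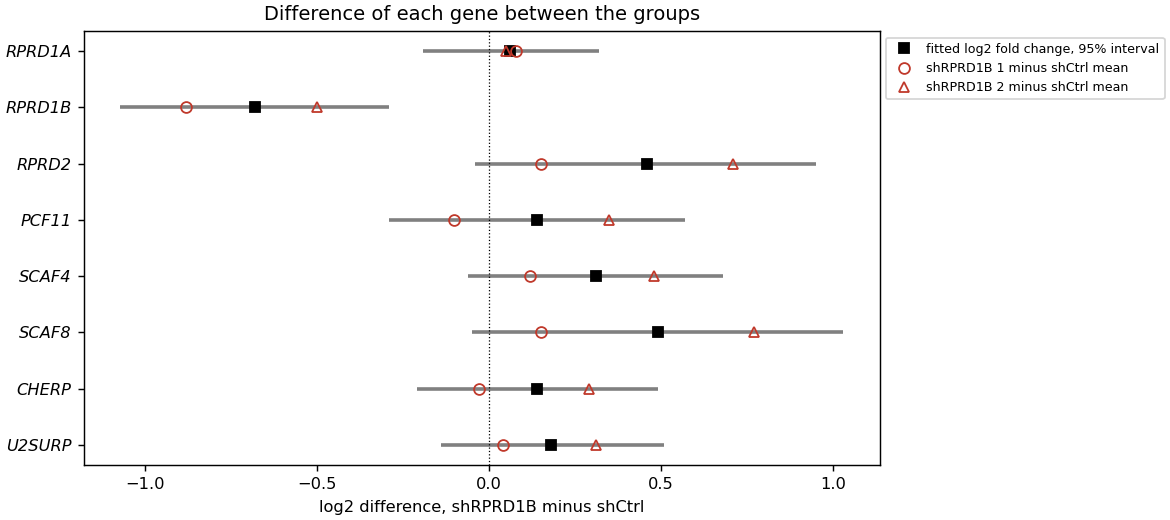
Fitted log2 fold change (squares) with its 95% interval (lines) for each gene, and the value of each knockdown library relative to the shCtrl mean (circles for shRPRD1B 1, triangles for shRPRD1B 2). The interval of RPRD1B, from -1.07 to -0.29, lies below 0, and the intervals of the other 7 genes include 0.

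As a family, the members other than the target were called neither higher nor lower. Their 7 log2 fold changes were all above 0, where 50.5% of tested genes and 56.2% of genes of at least 16 CPM were. The median of the 7 was 0.18 (all tested genes 0.00, genes of at least 16 CPM 0.03). For 5 of the 7 both knockdown libraries lay above both control libraries, against 20.3% of tested genes. Among the 8966 genes of at least 16 CPM this was so for 2147. No member was higher at an unadjusted p under 0.05, against 3.52% of tested genes, and RPRD1B was lower at that level, against 3.77%. The median over the 7 was 0.08 in shRPRD1B 1 and 0.35 in shRPRD1B 2, the library with the highest share of mitochondrially encoded mRNAs (3.32%). Without shRPRD1B 1, edgeR called RPRD2, PCF11, SCAF4, SCAF8, CHERP and U2SURP higher (adjusted p between 4.56e-08 and 0.00122), but it then called 14.9% of all genes higher and 15.1% lower, since the lone knockdown library was taken to vary like the control group. Without shRPRD1B 2 it called none of the 7, with 5.86% of all genes called higher and 4.66% lower.

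**Figure D4:**
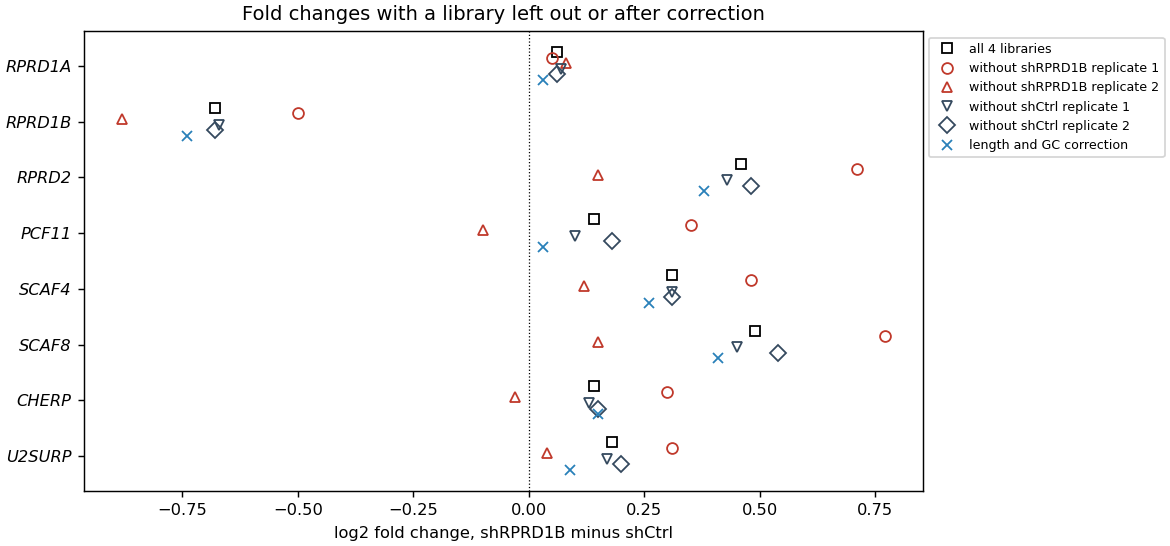
Log2 fold change of each gene with all 4 libraries (black squares), with each library left out in turn (red for shRPRD1B, dark blue for shCtrl) and after correcting for the length and GC content of transcripts (crosses). RPRD1B lies between -0.88 and -0.50 in all 6, and PCF11 and CHERP lie below 0 without shRPRD1B 2.

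All members other than RPRD1A were higher in shRPRD1B 2 than in shRPRD1B 1. The log2 ratio of shRPRD1B 2 over shRPRD1B 1 was -0.03 for RPRD1A, 0.27 for U2SURP, 0.32 for CHERP, 0.36 for SCAF4, 0.38 for RPRD1B, 0.46 for PCF11, 0.56 for RPRD2 and 0.63 for SCAF8. Of the genes of at least 16 CPM, 55.6% had a ratio above 0, and their median was 0.05. Across 8913 such genes in these same libraries this ratio had a correlation of 0.437 with log2 transcript length and -0.446 with GC content, and the ratio of shCtrl 2 over shCtrl 1 had 0.288 and -0.246, values across genes that are not independent replicates. RPRD1A and U2SURP, with the lowest GC content of the 8, had the lowest ratios. Among the remaining members CHERP, with the highest GC content, had the lowest ratio (0.32). The part of length and GC content in the ratios of the members was not tested. The transcripts of the members were 3874 to 7677 bases long, with a GC content from 36.2% in U2SURP to 60.9% in CHERP. With a correction for length and GC content, chosen after seeing the data, the log2 fold changes were -0.74 for RPRD1B, 0.38 for RPRD2, 0.41 for SCAF8, 0.26 for SCAF4, 0.15 for CHERP, 0.09 for U2SURP and 0.03 each for PCF11 and RPRD1A (edgeR adjusted p between 0.156 and 0.941).

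**Figure D5:**
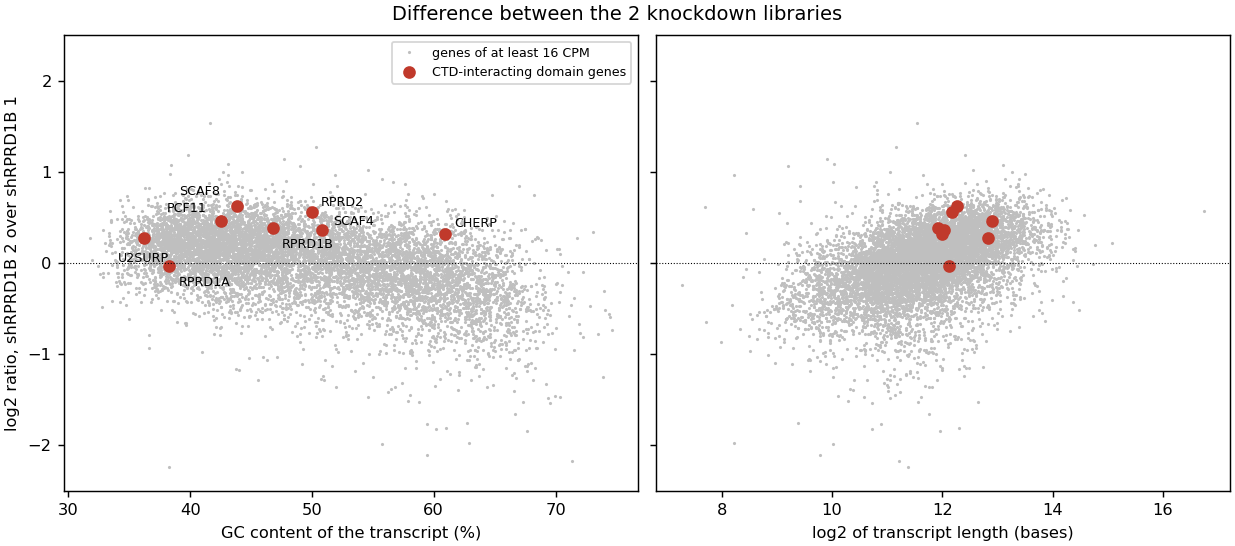
Log2 ratio of shRPRD1B 2 over shRPRD1B 1 against the GC content (left, %) and the log2 length in bases (right) of the transcript, for 8913 genes of at least 16 CPM (grey) and the 8 CID genes (red, named on the left). RPRD1A is at -0.03 and the other 7 lie between 0.27 and 0.63; 5 grey genes lie outside the axis.

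The genes whose pattern over the 4 libraries was most like that of RPRD1B were taken by the Euclidean distance between centred log2 CPM profiles, among 10770 protein-coding genes of at least 5 CPM. The nearest was FAM3C, a secreted cytokine-like protein, at a distance of 0.062, with 23.8 and 32.9 CPM in shRPRD1B and 45.2 and 44.9 CPM in shCtrl. SPCS3, a subunit of the signal peptidase complex, had 74.2 and 90.7 CPM in shRPRD1B, against 130 and 132 CPM in shCtrl (distance 0.072). KBTBD2, a substrate adaptor of cullin 3 ubiquitin ligase, had 15 and 19.8 CPM in shRPRD1B, against 29.4 and 27.0 CPM in shCtrl (0.082). NXT2, an mRNA export factor of the NTF2 fold, and ARL6IP1, a protein that shapes the endoplasmic reticulum, followed at 0.091 and 0.094. By the way they were chosen, each of the 5 was lowest in shRPRD1B 1, next in shRPRD1B 2 and highest in the control libraries, as RPRD1B was. None was called by edgeR (log2 fold changes -0.70 to -0.66, adjusted p between 0.394 and 0.547), while DESeq2 called SPCS3 (adjusted p = 0.0134) and ARL6IP1 (adjusted p = 0.0155). DESeq2 called 0.561% of all genes lower. The 5 were picked for their likeness to RPRD1B, which DESeq2 called too, so these calls are no separate result.

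These 5 genes share with RPRD1B a word of 6 bases, ACTAGC, which an earlier analysis of the same fold changes had found to be frequent among lower transcripts. The word was searched on the transcript strand only, in 1 transcript per gene, and since it was chosen on these libraries its counts are a description. RPRD1B holds it once, in its coding sequence, and the window is printed with the word in capitals.
RPRD1B: agcatgtctgttACTAGCagaatataacgg
All 5 nearest genes hold it in their 3′ UTR. One window for each is printed, with the run of bases shared with the RPRD1B window in capitals.
FAM3C: atttagagcaaTACTAGCAtacgtttttct
SPCS3: ttcttacatgtgACTAGCAactttctccac
KBTBD2: atgacaaacaTTACTAGCAtgttcaactgc
NXT2: aagctgcatataACTAGCAataactacatt
ARL6IP1: ttaaactgattaACTAGCtgtaatatagtt
KBTBD2 holds the word 4 times, with shared runs of 6 to 9 bases, and the window with the longest run is shown. The run was 8 bases in FAM3C, 7 in SPCS3 and NXT2 and 6 in ARL6IP1. Of 14149 tested protein-coding genes, 13.4% hold the word in the 3′ UTR and 10.4% in the coding sequence. Among the genes nearest to RPRD1B in pattern, 16 of 20, 36 of 50 and 56 of 100 hold it in the 3′ UTR. Those numbers of neighbours were chosen after the 5 had been seen. Genes nearest to RPRD1B are lower transcripts by selection, and the word was picked for its frequency among such transcripts. The counts therefore show nothing particular to RPRD1B, and the 13.4% covers tested protein-coding genes of any level or direction.

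Within the family the word occurs in RPRD1B, the member with the lower mean, and also in members with higher means. RPRD2 holds it at 2 places in its coding sequence and PCF11 once in its 3′ UTR, and their log2 fold changes were 0.46 and 0.14. The windows of these members are printed with the word in capitals.
RPRD2: gctacccacaatACTAGCcctgctgcccca
RPRD2: cagcgtggccctACTAGCacctcaatcgac
PCF11: tatgtggcaggcACTAGCactttctacatg
RPRD1A, SCAF4, SCAF8, CHERP and U2SURP do not hold the word in the transcripts used. Whether the hairpin matches any of these windows was not tested, because the sources used here do not give its sequence.

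The partners through which the members act were read from lists and are given by counts. Of the 12 Pol II subunit genes, which build the enzyme the CIDs bind, none was called by edgeR or DESeq2. Their median log2 fold change was -0.22, with -0.09 in shRPRD1B 1 and -0.35 in shRPRD1B 2. With the length and GC correction the median was -0.14. The knockdown lay wholly below the control in 8 of 12, against 20.6% of tested genes. POLR2L, a small subunit shared by the 3 nuclear polymerases, was the member at an unadjusted p under 0.05. POLR2G, of the stalk of the enzyme, had 101 and 78.8 CPM in shRPRD1B, against 116 and 114 CPM in shCtrl (log2 fold change -0.35 ± 0.15, edgeR adjusted p = 0.687). POLR2F, another shared subunit, had 183 and 138 CPM in shRPRD1B and 210 and 199 CPM in shCtrl (-0.35 ± 0.16, adjusted p = 0.693).

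Of the 9 CTD phosphatase, isomerase and RPRD-associated genes none was called or stood at an unadjusted p under 0.05, and the median was 0.08. RPAP2, the CTD phosphatase that co-purifies with RPRD1A and RPRD1B, had 48.4 and 59.4 CPM in shRPRD1B, against 44.5 and 48.6 CPM in shCtrl, which overlap (0.21 ± 0.14, edgeR adjusted p = 0.747). SSU72, a phosphatase of CTD serine residues, had 286 and 259 CPM in shRPRD1B, against 310 and 296 CPM in shCtrl (-0.15 ± 0.11, adjusted p = 0.757). POLR2M, whose product binds polymerase and blocks access of initiation factors, had 27.8 and 27.9 CPM in shRPRD1B, against 26.1 and 25.9 CPM in shCtrl (0.10 ± 0.12, adjusted p = 0.833).

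Of the 12 CTD kinase genes none was called by edgeR, the median was 0.10, and 2 were lower at an unadjusted p under 0.05, against 3.77% of tested genes. The median was -0.10 without shRPRD1B 2. CCNC, which encodes the Mediator kinase cyclin, had 45.1 and 44.5 CPM in shRPRD1B, against 67.0 and 68.9 CPM in shCtrl. It fell with DESeq2 (adjusted p = 0.00866), which called 0.561% of all genes lower. MNAT1, which helps to assemble the kinase that activates CDKs, had 25.2 and 24.0 CPM in shRPRD1B, against 39.7 and 33.9 CPM in shCtrl (-0.58 ± 0.13, edgeR adjusted p = 0.469). CCNT2, a cyclin of the elongation kinase P-TEFb, had 48.3 and 63.2 CPM in shRPRD1B, against 42.2 and 44.8 CPM in shCtrl (0.36 ± 0.16, adjusted p = 0.692). Unlike RPRD1B, CCNC had nearly equal values in the 2 knockdown libraries.

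Of the 8 genes of CTD-binding proteins without a CID none was called, with a median of 0.14. In this list 1 gene was higher at an unadjusted edgeR p under 0.05, against 3.52% of tested genes. Values above 0 were seen in 7, against 50.5% of tested genes and 56.2% of those of at least 16 CPM. The capping enzyme gene RNGTT had 46.2 and 51.0 CPM in shRPRD1B, against 40.3 and 43.6 CPM in shCtrl (0.21 ± 0.12, edgeR adjusted p = 0.721). Its knockdown libraries both lay above the control libraries, as in 20.3% of tested genes.

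Of the 19 tested cleavage and polyadenylation partners of PCF11, of 20 listed, none was called. In this list 2 genes were higher at an unadjusted edgeR p under 0.05, against 3.52% of tested genes. Values above 0 were seen in 17, against 50.5% of tested genes and 56.2% of those of at least 16 CPM. The median was 0.16, with 0.02 in shRPRD1B 1 and 0.26 in shRPRD1B 2. PAPOLG, a poly(A) polymerase, had 28.4 and 34.7 CPM in shRPRD1B, against 23.4 and 24.2 CPM in shCtrl, and NUDT21, of cleavage factor I, had 58.8 and 73.7 CPM in shRPRD1B, against 51.7 and 51.2 CPM in shCtrl. PABPN1, the nuclear poly(A)-binding protein, had 59.1 and 52.4 CPM in shRPRD1B, against 46.1 and 45.8 CPM in shCtrl. Their edgeR adjusted p lay between 0.67 and 0.687.

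Of the 22 U2 snRNP partners of CHERP and U2SURP none was called by edgeR with group as the only term, and the median was 0.11. At an unadjusted edgeR p under 0.05, 1 was higher and 1 lower, against 3.52% and 3.77% of tested genes. PUF60, which helps U2AF recognise the 3′ splice site, had 68.0 and 50.1 CPM in shRPRD1B, against 173 and 122 CPM in shCtrl. It fell with DESeq2 (log2 fold change -1.32, adjusted p = 8.76e-06), which called 0.561% of all genes lower, and had an edgeR adjusted p of 0.306. For PUF60 the log2 ratio of library 2 over library 1 was -0.44 in shRPRD1B and -0.50 in shCtrl. The same edgeR test called it without a low-count filter (adjusted p = 4.87e-18), a setting that called 0.816% of genes lower. With a replicate term edgeR called it too (-1.32, adjusted p = 0.000659), but limma voom did not (-1.31, adjusted p = 0.348). Its value was -1.56 without shRPRD1B 1, -1.12 without shRPRD1B 2, -1.05 without shCtrl 1 and -1.55 without shCtrl 2. U2AF1, the small subunit of U2AF, had 9.0 and 14.2 CPM in shRPRD1B, against 6.46 and 6.39 CPM in shCtrl (0.85 ± 0.26, edgeR adjusted p = 0.627), a count made uncertain by a near-identical copy of the gene. SNRPA1, a core protein of the U2 snRNP, had 133 and 113 CPM in shRPRD1B, against 150 and 153 CPM in shCtrl (-0.30 ± 0.12, adjusted p = 0.684).

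Of the 12 Wnt and cyclin genes that have been linked to RPRD1B none was called by edgeR, with a median of 0.08. At an unadjusted edgeR p under 0.05, 2 were higher and 2 lower, against 3.52% and 3.77% of tested genes. CCND1, the cyclin D1 gene that RPRD1B is known to promote, had 97.7 and 87.1 CPM in shRPRD1B, against 70.2 and 73.8 CPM in shCtrl (0.36 ± 0.12, edgeR adjusted p = 0.645). The kinase partner CDK6 had 54.7 and 57.8 CPM in shRPRD1B, against 77.7 and 87.0 CPM in shCtrl. It fell with DESeq2 (adjusted p = 0.049), which called 0.561% of all genes lower. MYC had 140 and 103 CPM in shRPRD1B, against 178 and 164 CPM in shCtrl (-0.49 ± 0.17, edgeR adjusted p = 0.661).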

How the data were processed

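Poly(A) RNA was measured in 4 libraries. The authors deposited 1 table per library, with whole-number counts of reads in each gene; the submitters' processing notes name Trim Galore, HISAT2, featureCounts and hg38. For versions, annotation release, strand and multi-mapping settings nothing is given in the sources used here. No column was left unused. Symbols matched 62686 of 69222 identifiers. Transcripts, coordinates and overlaps came from GENCODE 29 (GRCh38), 1 transcript per gene, the one with the longest coding sequence.

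Groups were compared with edgeR 4.0.16 under R 4.3.3, using TMM factors, filterByExpr with a minimum count of 10, robust quasi-likelihood fit, group as the only term, Benjamini-Hochberg adjustment over all 20319 tested genes. Log2 CPM used a prior count of 2. Alternatives used DESeq2 1.42.0, limma 3.58.1 (voom), other scalings and filters, a replicate term and leaving out each library; a length and GC correction (mgcv 1.9.3) was added later. On simulated data for shRPRD1B against shCtrl over 20319 genes, the fit recovered 70% of 2-fold and 100% of 4-fold changes, with 23 false calls. The simulated counts were drawn gene by gene and held no shift linked to length or GC content. These rates may therefore not carry over to the real libraries.

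The members and lists were chosen with earlier results of these data known. Named genes were the members, the 3 list genes with the smallest p, the 5 genes nearest to RPRD1B in pattern, and genes that overlap a member. A few genes taken by this rule are not reported here.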

Additional observations from a re-analysis of the deposited data

How the results depend on the processing

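Among all genes, 4 were called higher and 3 lower. The counts were 126 and 114 with DESeq2, 0 and 0 with limma voom, 334 and 308 without a low-count filter, 0 and 0 with at least 5 CPM in 2 libraries, 16 and 22 with the length and GC correction and 106 and 112 with that correction and the replicate block. Leaving out a library gave 37 to 3186 higher and 49 to 3228 lower. At an unadjusted p under 0.05 edgeR gave 715 higher and 766 lower. An earlier analysis of the same counts, with settings described alike, called more genes in both directions, and the difference was not traced.

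RPRD1B kept its direction in every alternative run. It passed the threshold with DESeq2 (-0.68) and without a low-count filter (-0.68, edgeR adjusted p = 0.00161). With the length and GC correction and the replicate block it passed too (-0.75, edgeR adjusted p = 0.0116). In the other runs on all 4 libraries it missed the threshold (edgeR or limma voom adjusted p between 0.0806 and 0.495). Leaving out 1 library gave -0.50 without shRPRD1B 1, -0.88 without shRPRD1B 2, -0.67 without shCtrl 1 and -0.68 without shCtrl 2. SCAF8 passed without a low-count filter (0.50). Leaving out a library moved RPRD2 over 0.15 to 0.71, PCF11 over -0.10 to 0.35, SCAF4 over 0.12 to 0.48, SCAF8 over 0.15 to 0.77, CHERP over -0.03 to 0.30 and U2SURP over 0.04 to 0.31. The signs of PCF11 and CHERP turned without shRPRD1B 2. The cause was not tested.

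With the replicate block RPRD1B was -0.69 (adjusted p = 0.0806), and the calls were 76 higher and 51 lower. PUF60 was then called (-1.32, adjusted p = 0.000659). The labels do not say that the numbers pair the libraries. Same-numbered libraries deviated with a correlation of 0.315 over 8930 genes, and with 2 pairs this does not settle it.

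List medians ranged, over the libraries left out, from 0.06 to 0.33 for the 8 members, from 0.08 to 0.35 for the 7 without RPRD1B, from -0.35 to -0.09 for Pol II subunits, from -0.04 to 0.10 for phosphatases, from -0.10 to 0.22 for kinases, from -0.11 to 0.33 for other CTD-binding proteins, from 0.03 to 0.26 for polyadenylation partners, from 0.02 to 0.18 for U2 partners and from 0.00 to 0.09 for Wnt and cyclin genes.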
